A study of Homo sapiens with 17 samples.

Results

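Short shared H3K27me3 peaks are the H3K27me3 peaks of UTX-knockout (KO) human neurons that are under 5000 bases long and overlap an H3K27me3 peak of wild-type (WT) neurons by at least 1 base. They numbered 5890 of the 10950 peaks in the KO list. Of the other KO peaks, 566 were shared with WT but 5000 bases or longer, and 4494 overlapped none of the 10340 WT peaks. The 5000-base limit fell inside a continuous range of lengths: the 3 longest peaks under it measured 4986, 4991 and 4992 bases, and the 3 shortest shared peaks above it 5009, 5017 and 5020 bases. The peaks were selected on 2 measured values, their KO length and their overlap with WT, so the lengths and enrichments of both lists are given below as descriptions, without tests. RNA and H3K36me3 were not used in the choice.

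The KO groups were neurons carrying UTX-/- (lines KO1 and KO2), and the WT group was neurons of the unedited parent, H9, an established human embryonic stem cell line. All were grown through embryoid bodies and rosette-stage neural progenitors and harvested at day 40. PolyA RNA was sequenced from 3 KO1, 2 KO2 and 3 WT libraries, and H3K27me3 and H3K36me3 were profiled by chromatin immunoprecipitation (ChIP), with 1 deposited peak list per genotype and mark. The labels attach the single KO list to both KO lines and do not state how they were combined, so no peak value has a replicate check. The labels name no separate differentiation for each RNA replicate, and p-values therefore cover the spread among the sequenced libraries, which may be technical.

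H3K27me3, trimethylation of lysine 27 of histone H3, is laid down by Polycomb repressive complex PRC2 and marks silenced developmental genes. In differentiated cells it forms long domains over homeobox and other developmental factors, and shorter patches at the CpG-rich start sites of genes used in other cell types or at other stages. UTX (gene symbol KDM6A) removes methyl groups from this lysine and also sits in a COMPASS-type complex that methylates another lysine of the same histone. H3K36me3 marks the bodies of transcribed genes and inhibits PRC2 on the same histone tail.

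KDM6A RNA, given as CPM (counts per 1000000 of the library total after TMM scaling), stood at 40.8, 30.1 and 34.1 CPM in the KO1 libraries and 25.9 and 33.9 CPM in the KO2 libraries, against 36, 35.9 and 35.2 CPM in WT. The groups overlapped, and the authors' deposited table gave a log2 fold change of -0.10 ± 0.18 (SE, adjusted p 0.766). The edited site was not given in the sources used here. A gene-level count does not test a small deletion. The RNA libraries held 17.4 to 31.5 M assigned counts (M, 1000000). The KO H3K27me3 list rested on 37.6 M ChIP tags and 45.7 M control tags, and the WT list on 22.4 M and 23.0 M. KO1 replicate 2 and both KO2 libraries stood apart: 31 mesenchymal and connective tissue markers summed to 5648, 114654 and 4721 CPM in KO1 and 42583 and 63640 CPM in KO2, against 4463, 2755 and 5567 CPM in WT. The 47 pan-neuronal markers summed to 7859, 2516 and 9027 CPM in KO1 and 5564 and 3868 CPM in KO2, against 7735, 10765 and 7384 CPM in WT. Of the 5 marker lists, none had a member at 0 in all libraries. In bulk RNA, fewer cells of a type and less RNA per cell cannot be told apart. Counts of calls by peak class and the calls of named genes are also given without those 3 libraries, a version that holds no KO2 library.

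The sequences below show the kind of start site these peaks cover, and at which 7 of them the mark was called in 1 genotype and not in the other. Each is the RefSeq window (GRCh38.p14) from 250 bases before to 50 bases after a gene's start, 5′ to 3′ on the gene's strand, with every CG dinucleotide in capitals. The first 4 lay in a WT H3K27me3 peak and outside every KO peak, and belong to genes at peaks that were shorter in KO. They are CDKN2B, an inhibitor of cyclin-dependent kinases, SLIT3, a secreted axon guidance ligand, PDLIM3, an actin-associated LIM-domain protein, and ADM, the precursor of the vasodilator peptide adrenomedullin. The WT peak over the CDKN2B window was not the one paired with its member, and 290 of the 300 bases of the PDLIM3 window were inside the WT peak. The other 3 lay in a KO peak and outside every WT peak, and belong to genes at peaks that were longer in KO: GRM5, a metabotropic glutamate receptor, LRAT, which esterifies retinol, and SLC40A1, the iron exporter ferroportin.
CDKN2B, chr9:22009256-22009555, minus strand: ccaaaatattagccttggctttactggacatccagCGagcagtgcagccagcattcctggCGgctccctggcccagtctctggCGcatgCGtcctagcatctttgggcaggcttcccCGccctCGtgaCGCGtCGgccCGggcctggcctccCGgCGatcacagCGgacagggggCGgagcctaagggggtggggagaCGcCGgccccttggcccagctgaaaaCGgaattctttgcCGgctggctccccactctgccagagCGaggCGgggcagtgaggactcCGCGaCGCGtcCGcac
SLIT3, chr5:169301090-169301389, minus strand: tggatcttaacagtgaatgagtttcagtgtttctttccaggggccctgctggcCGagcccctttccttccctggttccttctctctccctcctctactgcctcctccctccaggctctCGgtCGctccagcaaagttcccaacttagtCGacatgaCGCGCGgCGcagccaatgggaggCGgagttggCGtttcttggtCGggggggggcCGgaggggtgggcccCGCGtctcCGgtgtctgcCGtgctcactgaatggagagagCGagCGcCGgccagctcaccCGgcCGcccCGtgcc
PDLIM3, chr4:185535458-185535757, minus strand: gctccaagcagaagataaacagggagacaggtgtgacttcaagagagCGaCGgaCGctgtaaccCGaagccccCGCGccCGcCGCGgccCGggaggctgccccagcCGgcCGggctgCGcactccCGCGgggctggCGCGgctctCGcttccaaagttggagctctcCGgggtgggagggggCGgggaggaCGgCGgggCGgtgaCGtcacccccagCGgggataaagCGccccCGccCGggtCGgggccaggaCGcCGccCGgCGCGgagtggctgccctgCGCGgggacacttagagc
ADM, chr11:10304823-10305122, plus strand: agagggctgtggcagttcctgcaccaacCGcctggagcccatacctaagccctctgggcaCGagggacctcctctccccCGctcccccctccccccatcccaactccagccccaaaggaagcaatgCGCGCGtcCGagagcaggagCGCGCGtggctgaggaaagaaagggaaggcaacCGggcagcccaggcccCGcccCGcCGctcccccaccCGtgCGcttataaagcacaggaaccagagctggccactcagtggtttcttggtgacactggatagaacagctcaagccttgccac
GRM5, chr11:89065933-89066232, minus strand: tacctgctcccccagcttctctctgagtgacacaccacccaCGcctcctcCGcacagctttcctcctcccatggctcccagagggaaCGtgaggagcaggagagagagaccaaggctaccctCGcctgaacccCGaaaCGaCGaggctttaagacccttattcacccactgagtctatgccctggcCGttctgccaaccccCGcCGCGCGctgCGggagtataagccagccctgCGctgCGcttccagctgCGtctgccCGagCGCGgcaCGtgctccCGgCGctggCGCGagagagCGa
LRAT, chr4:154743750-154744049, plus strand: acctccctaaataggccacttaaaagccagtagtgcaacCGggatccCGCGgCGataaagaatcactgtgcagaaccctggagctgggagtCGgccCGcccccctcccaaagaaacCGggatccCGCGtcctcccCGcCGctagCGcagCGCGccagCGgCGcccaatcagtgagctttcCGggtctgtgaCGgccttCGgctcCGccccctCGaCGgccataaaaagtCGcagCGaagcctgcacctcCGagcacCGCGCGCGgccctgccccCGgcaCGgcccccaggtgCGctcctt
SLC40A1, chr2:189580737-189581036, minus strand: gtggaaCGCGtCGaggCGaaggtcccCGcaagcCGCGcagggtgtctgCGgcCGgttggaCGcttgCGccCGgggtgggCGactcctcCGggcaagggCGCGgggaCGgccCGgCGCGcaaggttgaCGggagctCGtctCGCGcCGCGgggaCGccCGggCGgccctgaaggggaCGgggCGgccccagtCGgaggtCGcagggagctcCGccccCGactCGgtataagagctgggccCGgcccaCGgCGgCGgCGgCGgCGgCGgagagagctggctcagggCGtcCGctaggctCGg
The windows held 16 (ADM) to 47 (SLC40A1) CG dinucleotides in 300 bases.

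Most short shared peaks differed less than 2-fold in length between the genotypes. Their median length was 988.5 bases in KO (quartiles 507 and 2092.5) and 1166 bases in the WT peaks that shared most bases with them (quartiles 553 and 2252.5), with a median log2 length ratio, KO over WT, of 0.01 (quartiles -0.68 and 0.54). Of the 5890 peaks, 745 (12.6%) were at least 2-fold longer in KO than the WT peak (called widened), 1131 (19.2%) were at least 2-fold shorter (called shrunk) and 4014 (68.1%) were similar. Much of this came from peaks that were split in one list and joined in the other. Of the 1131 shrunk peaks, 890 lay in a WT peak that held at least 2 KO peaks, and 348 of the 745 widened peaks ran over at least 2 WT peaks.

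Where 1 KO peak faced 1 WT peak, more peaks had widened than shrunk. There were 3219 such 1 to 1 pairs (54.7% of the short shared peaks), of which 385 (12.0%) had widened, 239 (7.42%) had shrunk and 2595 (80.6%) were similar. Their median lengths were 923 bases in KO and 789 bases in WT. Counted from the WT side, without the length limit on the KO peak, 388 of 3232 such pairs had widened and 239 had shrunk. The shares differed by WT length, which is also the divisor of the length ratio and, with the length limit, sets how far a peak can change. The shortest peak in the KO list was 287 bases, so only 2039 pairs could have shrunk 2-fold, of which 11.7% did. The KO peak had to be under 5000 bases, so only the 2759 pairs with a WT peak under 2500 bases could have widened 2-fold, of which 14.0% did. Of the 1869 pairs with a WT peak under 1000 bases, 19.7% had widened and 6.74% had shrunk, while of the 890 pairs with a WT peak of 1000 to under 2500 bases, 1.91% had widened and 11.8% had shrunk. Of the 460 pairs with a longer WT peak, which the limit kept from widening 2-fold, 1.74% had shrunk. These shares are a description and show no dependence on WT length by themselves. The unequal tag numbers of the 2 lists move with these values, and their part in them was not tested.

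**Figure D1:**
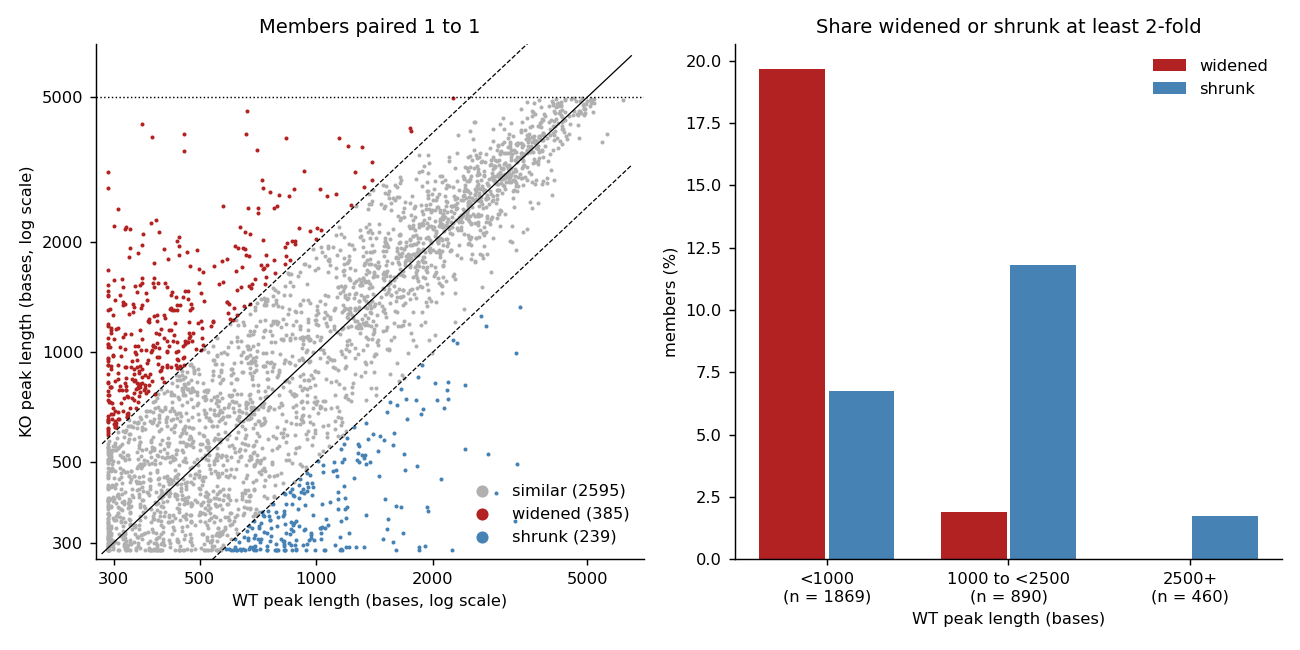
Lengths of the 3219 short shared H3K27me3 peaks paired 1 to 1, on log axes (left; KO peak on the vertical and WT peak on the horizontal axis, 1 point per pair, solid line for equal lengths, dashed lines for 2-fold longer and shorter, dotted line for the 5000-base limit), and the share of pairs widened or shrunk in 3 ranges of WT length (right). Widened pairs (385) lie over short WT peaks, 19.7% of those under 1000 bases, and shrunk pairs (239) reach their highest share, 11.8%, at 1000 to under 2500 bases. The length limit left no room for a widened pair at a WT length of 2500 bases or more.

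Peak height was lower in KO for most short shared peaks. The fold enrichment over control that the authors' peak caller gave each peak had a median of 5.20 in KO and 6.42 in WT, with a median log2 ratio of -0.26, and was higher in KO at 1743 peaks (29.6%). It was at least 2-fold higher in KO at 49 peaks and at least 2-fold lower at 587. Height moved with length. Among 1 to 1 pairs, widened peaks had a median enrichment of 5.20 in KO and 4.59 in WT, with KO higher in 249 of 385 (64.7%). Shrunk peaks had a median of 3.84 in KO and 5.83 in WT, with KO higher in 19 of 239 (7.95%). Similar peaks had medians of 5.28 in KO and 6.12 in WT, with KO higher in 777 of 2595 (29.9%). These are the authors' values per peak from lists of unequal depth, so a ratio near the median of all pairs is not a change at a single peak.

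**Figure D2:**
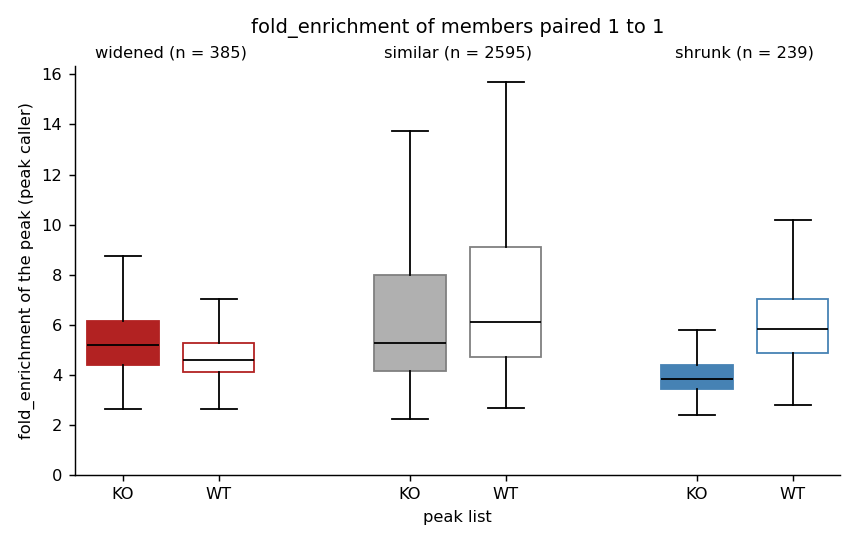
Fold enrichment of the peak over control, as the authors' peak caller gave it, for widened, similar and shrunk peaks paired 1 to 1 (box: quartiles, line: median, whiskers: furthest value within 1.5 box lengths; filled KO, open WT; points beyond the whiskers are not drawn). KO is above WT at the median for widened peaks (5.20 and 4.59) and below it for shrunk peaks (3.84 and 5.83).

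The most widened peaks near a start site lay at genes for enzymes, transcription factors and signalling proteins. At LRAT the KO peak (chr4:154741956-154745833, GRCh38) was 3878 bases long with an enrichment of 8.34, against a WT peak of 376 bases with 5.25. At SP8, a zinc-finger transcription factor of the developing forebrain, the KO peak measured 2817 bases with an enrichment of 6.63, and the WT peak 290 bases with 3.95. The KO peaks were thus 10.3 and 9.71 times the WT length, and the LRAT peak took in the start site printed above. At SLC40A1 the peak was 2102 bases long with an enrichment of 6.82 in KO and 357 bases with 4.49 in WT. At EFNA3, an ephrin ligand, it was 4584 bases with 8.72 in KO and 662 bases with 5.37 in WT. The others among the 10 highest length ratios were at CDH23, PDE2A, FGF14, NHS, KCNIP1-AS1 and OTX1 (a homeobox factor), with KO lengths of 1681 to 2461 bases and WT lengths of 290 to 392 bases. PAX6, a regulator of neural progenitors, also lay at a widened peak, of 2067 bases with an enrichment of 7.43 in KO against 442 bases with 3.07 in WT.

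Among 1 to 1 pairs near the start of a gene in the RNA table, the most shrunk lay at genes for a receptor phosphatase, a chondroitin sulfotransferase and several secreted factors. At PTPRU, the phosphatase, the KO peak (chr1:29237272-29237682) was 411 bases long with an enrichment of 5.40, against 2903 bases with 12.4 in WT. At CHST15, the sulfotransferase, it was 493 bases with 3.71 in KO and 3286 bases with 5.40 in WT. At JHY it was 294 bases with 4.05 in KO and 1910 bases with 13.8 in WT. The KO peaks were thus 0.142, 0.15 and 0.154 of the WT length. At FOXO1, a transcription factor downstream of insulin signalling, the peak was 526 bases with 4.72 in KO and 2773 bases with 9.8 in WT. At SLIT3 it was 449 bases with 4.21 in KO and 2099 bases with 7.90 in WT. At LOX, which cross-links collagen and elastin, it was 379 bases with 4.4 in KO and 1609 bases with 3.94 in WT, so that length fell while height did not. BDNF, a neurotrophin, lay at 4 short shared peaks. The 1 to 1 pair that had shrunk (chr11:27699671-27699976) measured 306 bases with an enrichment of 2.64 in KO against 1483 bases with 6.53 in WT. LRFN5, CD9 and PRICKLE2-DT completed the 10 lowest ratios, with KO lengths of 287 to 375 bases and WT lengths of 1324 to 1928 bases.

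The highest short shared peaks had similar lengths in both lists, with 1 exception. The peak at EEF1A1, a translation elongation factor, had the highest KO enrichment, 26.8 over 1469 bases in KO against 10.4 over 1173 bases in WT. EEF1A1 has many processed copies in the genome, so reads there are uncertain. At CLDN7, a tight-junction protein, the enrichment was 20.2 over 4684 bases in KO and 9.64 over 4914 bases in WT. The exception was PDGFA, a growth factor for mesenchymal cells, with 4120 bases and 18 in KO against 9400 bases and 12.2 in WT, a WT peak that also overlapped another KO peak. The other 7 of the 10, at LTK, HBM, ITPKA, ARHGAP45, NAGS with PYY, LOC101927583 and a site with no gene start, had KO enrichments of 16.9 to 19.2 and length ratios between 0.96 and 1.14.

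Short shared peaks often lay near gene starts, at a share between those of long shared peaks and of KO peaks with no WT counterpart. A start site stood within 2 kb of 2457 peaks (41.7%), against 363 of 566 shared peaks of 5000 bases or more (64.1%) and 1108 of 4494 KO peaks with no WT peak (24.7%). The share was 37.9% for widened, 42.3% for similar and 39.7% for shrunk 1 to 1 pairs. The 2457 peaks gave 2154 genes, 7.92% of the 27195 with a start site, of which 1620 code for proteins and 73 also lay at a KO peak of 5000 bases or more. The 1 to 1 pairs differed in what they did at the start site itself. Of the 201 start sites near widened pairs, 40 (19.9%) were covered in KO only, 5 (2.49%) in WT only, 59 (29.4%) in both and 97 (48.3%) in neither. Of the 144 near shrunk pairs, 4 (2.78%) were covered in KO only, 60 (41.7%) in WT only, 33 (22.9%) in both and 47 (32.6%) in neither. Of the 1446 near similar pairs, 62 (4.29%) were covered in KO only and 112 (7.75%) in WT only. These counts share the lengths that set the classes and are a description.

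Start sites inside short shared peaks were rich in G, C and CG dinucleotides. Over the 1596 RefSeq windows whose start site lay in a short shared peak, the median G+C content was 69.0% and the median ratio of observed to expected CG dinucleotides 0.77. Over all 34789 windows the medians were 58.7% and 0.58, over the 577 windows at shared peaks of 5000 bases or more 66.0% and 0.79, and over the 160 at KO peaks with no WT peak 61.0% and 0.62. 4 letter strings were searched on both strands, none of which contains another. GGGCGG stood in 70.7% of the 1596 windows against 44.9% of all windows, CCAAT in 20.4% against 34.6%, TATAAA in 6.27% against 11.6% and CACGTG in 8.71% against 7.24%. In the 60 windows of widened pairs the median G+C content was 67.2%, and in the 28 of shrunk pairs 71.8%. A match is a description of the letters and not a site.

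Few short shared peaks overlapped a called H3K36me3 peak, and the H3K36me3 lists covered only 2.64 M bases in KO and 14.5 M in WT. In the KO lists 7 of the 5890 (0.119%) overlapped an H3K36me3 peak, and in the WT lists 16 (0.272%), where the deposited H3K36me3 lists hold 8937 KO and 30144 WT peaks. Of the 5060 other KO H3K27me3 peaks, 5 overlapped a KO and 41 a WT H3K36me3 peak. The 16 under a WT H3K36me3 peak comprised 10 of the 745 widened, 6 of the 4014 similar and 0 of the 1131 shrunk peaks. Among the 10 widened ones, those at SP8, CYP26C1 (which degrades retinoic acid), DNASE1L2 and PDE2A-AS2 overlapped an H3K36me3 peak in the WT list and not in the KO list. The one at NOXO1, an activator of NADPH oxidase, overlapped one in both. With so few overlaps and H3K36me3 lists of such unequal size, no comparison of classes was made.

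The genes at short shared peaks had more RNA in KO more often than genes in general, and those at shrunk peaks most of all. Of the 2154 genes, 1765 matched the RNA table and 1351 (76.5%) passed the filter on low counts. In the authors' deposited table (DESeq2, both KO lines against WT), 222 of 1691 (13.1%) rose in KO at an adjusted p under 0.05, where 2.84% of all 35269 genes did, and 20 (1.18%) fell, where 0.68% of all genes did. A gene at both a widened or shrunk and a similar 1 to 1 pair, such as BDNF or MSX2, was counted with the changed class only. At shrunk 1 to 1 pairs 29 of 89 genes (32.6%) rose and 2 (2.25%) fell. At similar pairs 113 of 893 (12.7%) rose and 11 fell, and at widened pairs 2 of 125 (1.60%) rose and 1 (0.8%) fell. The shares at shrunk pairs stand above the all-gene shares in both directions, the falling share on 2 genes only, and those at widened pairs stand near them. The 35269 genes include many below the count filter, however, which 18614 genes passed. Among genes that passed, edgeR at an unadjusted p under 0.05 gave 5.50% of widened-pair genes higher, where 11.5% of all were. No difference between the classes was tested.

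The same order appeared in the fold changes. The median edgeR log2 fold change, KO over WT, was -0.08 (quartiles -0.64 and 0.42) over 109 genes at widened pairs, 0.31 at similar pairs and 1.19 (quartiles 0.38 and 2.28) over 80 genes at shrunk pairs, where 64 of 80 were positive. Over all genes tested the median was -0.01. By library, the median difference of the shrunk-pair genes from the WT mean on the log2 scale was 0.46, 1.31 and 0.11 in the KO1 libraries and 1.45 and 1.1 in the KO2 libraries, against 0.13, -0.24 and 0.11 in WT. KO1 replicate 2 and both KO2 libraries were thus the highest, and KO1 replicate 3 lay within the WT range. Those 3 libraries are also the ones with high mesenchymal sums, whose part in the result was not tested. All 5 KO libraries exceeded all 3 WT libraries at 14 of the 80 shrunk-pair genes and lay below them at 4, where the background over all genes was 6.29% above and 6.16% below. At the 109 widened-pair genes these counts were 0 above and 6 below.

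edgeR's quasi-likelihood test called 0 genes at an FDR under 0.05, in this set or among all 18614 genes tested. At an unadjusted p under 0.05 it gave 36 of 80 shrunk-pair genes higher (45.0%) and 4 lower, and 6 of 109 widened-pair genes higher and 6 lower, where the background was 11.5% higher and 6.45% lower. Without KO1 replicate 2 and both KO2 libraries, DESeq2 called 7 of 87 shrunk-pair genes higher (8.05%) and 2 lower (2.30%). It called 22 of 891 similar-pair genes higher (2.47%) and 8 lower (0.898%), and 2 of 125 widened-pair genes higher (1.60%) and 1 lower (0.8%). At all short shared peaks it called 42 of 1684 genes higher (2.49%) and 17 lower (1.01%). Of all genes 0.492% were called higher and 0.329% lower. The median edgeR log2 fold change was then 0.21 at shrunk, 0.01 at similar and -0.00 at widened pairs. Over all 8 libraries DESeq2 made 29 higher and 2 lower calls at shrunk pairs, against a background of 2.84% higher and 0.676% lower. The fits that leave out 1 library are given without all-gene counts, so changes in them cannot be read as particular to these genes. Leaving out 1 library at a time, the 29 calls at shrunk pairs became 15 without WT replicate 1, 8 without WT replicate 2, 18 without WT replicate 3, 16 without KO1 replicate 2, 19 without KO2 replicate 1 and 17 without KO2 replicate 2. The highest count at shrunk pairs with 1 library left out was 38. The 222 calls at all short shared peaks became 129, 83 and 130 without WT replicates 1, 2 and 3, 144 without KO1 replicate 2, 351 without KO1 replicate 3 and 124 without KO2 replicate 2. The 2 higher calls at widened pairs became 1 without any 1 of the 3 WT or 2 KO2 libraries and 8 without KO1 replicate 1 or 3, and the 1 lower call became 0 without WT replicate 1 or 3 or either KO2 library, 3 without KO1 replicate 1 and 7 without KO1 replicate 3. With KO2 alone against WT, edgeR called 34 of 80 shrunk-pair genes higher and 1 lower and 7 of 110 widened-pair genes higher and 6 lower, where the background was 8.25% higher and 3.67% lower. With KO1 alone it called 0.

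**Figure D3:**
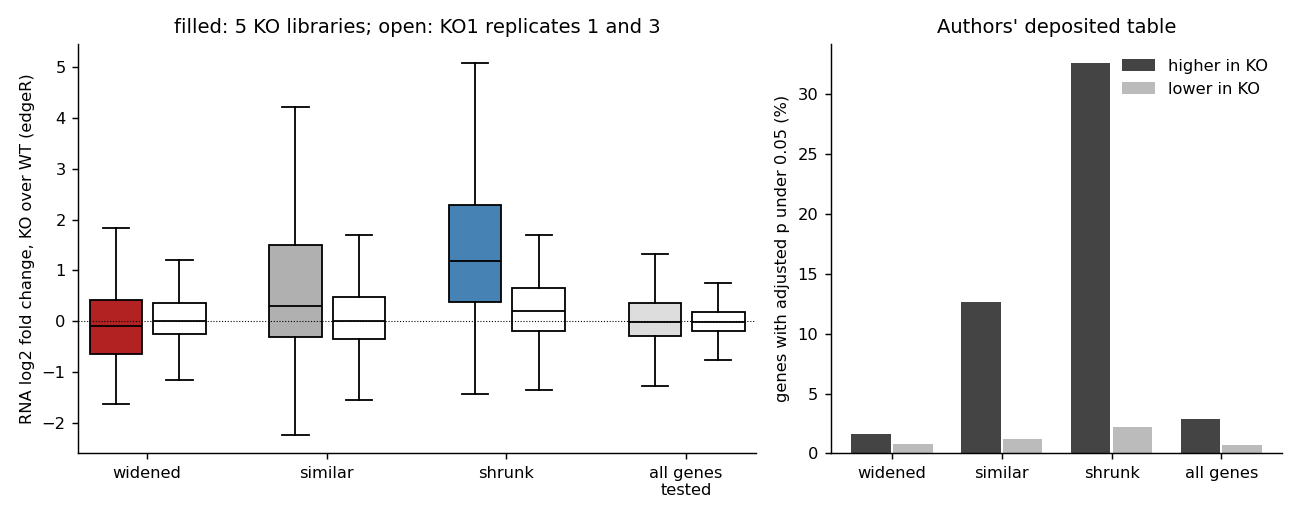
RNA of genes at widened, similar and shrunk 1 to 1 pairs and of all genes tested. Left, edgeR log2 fold change, KO over WT (box: quartiles, line: median, whiskers: furthest value within 1.5 box lengths), with all 5 KO libraries (filled) and with KO1 replicates 1 and 3 only (open): the shrunk-pair median is 1.19 with 5 KO libraries and 0.21 with 2. Right, share of genes with an adjusted p under 0.05 in the authors' deposited table: 32.6% of shrunk-pair genes rose, against 2.84% of all genes.

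Genes at other groups of peaks were set beside these. Of the 344 genes at WT peaks with no KO peak, 67 (19.5%) rose and 4 fell by the same adjusted p in the authors' deposited table. At shared peaks of 5000 bases or more 20 of 306 (6.54%) rose and 8 fell, and at KO peaks with no WT peak 18 of 403 (4.47%) rose and 11 fell. Among similar pairs whose WT length lay within the quartiles of the shrunk pairs, 794 to 1337.5 bases, 20 of 167 genes (12.0%) rose. Among similar pairs whose KO length lay within the quartiles of the widened pairs, 892 to 1654 bases, 25 of 198 (12.6%) rose. Genes at shrunk and at WT-only peaks thus had the 2 highest shares with all libraries. With all pairings in place of 1 to 1 pairs, 77 of 321 genes at shrunk peaks (24.0%) rose and 4 fell, and 9 of 247 at widened peaks rose and 4 fell. Without the 3 libraries all of these shares were lower, and so was the share over all genes, at 0.492% against 2.84% with all libraries. DESeq2 then called higher 11 of 340 genes at WT-only peaks (3.24%), 5 of 302 at shared peaks of 5000 bases or more (1.66%) and 2 of 393 at KO peaks with no WT peak (0.509%). It called 3 of 167 (1.80%) and 1 of 200 (0.5%) in the sets matched to shrunk and widened lengths, and with all pairings 13 of 316 at shrunk (4.11%) and 5 of 247 at widened peaks (2.02%), against the background of 0.492%.

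At shrunk pairs, the genes that rose included a cell cycle inhibitor, a neurotrophin, a growth factor binding protein and matrix proteins. CDKN2B (peak 394 bases long in KO, 1501 in WT) stood at 22.3, 17.3 and 5.93 CPM in KO1 and 71.1 and 39.3 CPM in KO2, against 1.3, 0.823 and 1.23 CPM in WT. Every KO library exceeded every WT library, the log2 fold change in the authors' deposited table was 4.83 ± 0.69 (SE, adjusted p 7.09e-09), and without the 3 libraries DESeq2 gave 3.68 (adjusted p 1.9e-07). BDNF stood at 13.1, 16.3 and 7.34 CPM in KO1 and 19.7 and 15.0 CPM in KO2, against 1.42, 3.19 and 2.36 CPM in WT. These groups did not overlap either, with a log2 fold change of 2.63 ± 0.40 (SE, adjusted p 1.06e-07) in the authors' deposited table. The culture medium contained added BDNF protein, per the labels, which RNA counts do not register.

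IGFBP3, which binds insulin-like growth factors, stood at 23.1, 175 and 3.64 CPM in KO1 and 431 and 131 CPM in KO2, against 1.46, 1.17 and 3.22 CPM in WT. The groups did not overlap, but KO1 replicate 3 was close to the highest WT library. Its peak was 825 bases long in KO and 2192 in WT, and the authors' deposited table gave a log2 fold change of 6.31 ± 1.05 (SE, adjusted p 1.69e-06). MSX2, a homeobox factor induced by BMP signals, stood at 14.1, 84.9 and 11.2 CPM in KO1 and 123 and 68.3 CPM in KO2, against 4.62, 2.16 and 5.04 CPM in WT (3.96 ± 0.76, SE, adjusted p 5.65e-05 in the authors' deposited table). Every KO library exceeded every WT library. Without the 3 libraries DESeq2 still called IGFBP3, MSX2, BDNF, CDKN2B and RFTN1 (a lipid raft protein), with adjusted p between 1.9e-07 and 0.0458, which made up 5 of its 7 higher calls among shrunk pairs.

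IGFBP3 and MSX2 were highest in the 3 libraries with high mesenchymal sums, and other shrunk-pair genes followed the same libraries. LOX, itself among the mesenchymal markers, stood at 13.8, 1191 and 11.0 CPM in KO1 and 181 and 689 CPM in KO2, against 9.81, 4.18 and 23.1 CPM in WT. KO1 replicates 1 and 3 lay within the WT range, and the log2 fold change of 5.12 ± 1.21 (SE) in the authors' deposited table, adjusted p 0.00195, lost its call in DESeq2 without KO1 replicate 2 (adjusted p 0.0678). SLIT3 stood at 22.2, 449 and 53.6 CPM in KO1 and 219 and 351 CPM in KO2, against 20.1, 27.7 and 29.4 CPM in WT. KO1 replicate 1 lay within the WT range, and the authors' deposited table gave 3.11 ± 0.81 (SE, adjusted p 0.00594), which DESeq2 gave as 0.066 without WT replicate 1 and 0.0506 without WT replicate 2. FOXO1 stood at 19.3, 66.0 and 7.31 CPM in KO1 and 48.2 and 53.2 CPM in KO2, against 7.17, 4.73 and 9.97 CPM in WT, with 2.43 ± 0.64 (SE, adjusted p 0.00754) in the authors' deposited table. Its DESeq2 adjusted p was 0.0604 without WT replicate 1 and 0.0975 without WT replicate 2. LOX, SLIT3 and FOXO1 had no DESeq2 call without the 3 libraries. PTPRU and CHST15 had the 2 lowest length ratios among the 1 to 1 pairs ranked above. For them the authors' deposited table gave log2 fold changes of 1.22 and 1.36 with adjusted p of 0.112 and 0.0679, and DESeq2 gave 0.982 and 0.957 without the 3 libraries.

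Fewer genes fell at shrunk pairs. PDLIM3 (peak 296 bases long in KO, 879 in WT) stood at 7.93, 6.62 and 8.78 CPM in KO1 and 11.9 and 9.12 CPM in KO2, against 18, 19.0 and 34.8 CPM in WT. No KO library reached the lowest WT library, and the authors' deposited table gave a log2 fold change of -1.42 ± 0.31 (SE, adjusted p 0.000569). DESeq2 gave -1.51 (adjusted p 0.002) without the 3 libraries. Its RNA fell although its start site, printed above, was covered by the mark in WT only. The other was the read-through transcript STX16-NPEPL1, whose counts share reads with its component genes and are uncertain.

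Of the 125 genes at widened pairs, 3 were called in the authors' deposited table. SCRT2, a neuronal repressor of the Snail family (peak 1342 bases long in KO, 318 in WT), stood at 21.1, 7.86 and 43.3 CPM in KO1 and 16.7 and 16.6 CPM in KO2, against 49.5, 87.1 and 59.6 CPM in WT. The groups did not overlap, and the log2 fold change was -1.63 ± 0.50 (SE, adjusted p 0.0274) in the authors' deposited table. DESeq2 lost the call without WT replicate 1, 2 or 3 (adjusted p 0.073, 0.219 and 0.12), without KO2 replicate 1 or 2 (0.0814 and 0.0986), and without the 3 libraries (0.158). STX11, a syntaxin known from immune cells, rose, with 0.455, 6.40 and 0.176 CPM in KO1 and 2.28 and 2.97 CPM in KO2, against 0.203, 0.0686 and 0.0536 CPM in WT (4.52 ± 1.11, SE, adjusted p 0.00321 in the authors' deposited table). DESeq2 gave an adjusted p of 0.0506 without WT replicate 2 and none without the 3 libraries. KO1 replicate 3 lay within the WT range, and no value exceeded 6.40 CPM. SENCR, a long noncoding RNA, was the third, listed at 0 in all WT libraries.

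The genes at the most widened peaks were not called. LRAT stood at 15.1, 2.97 and 7.87 CPM in KO1 and 22.4 and 3.72 CPM in KO2, against 5.55, 21.8 and 2.2 CPM in WT. SP8 stood at 148, 2.58 and 109 CPM in KO1 and 0.0448 and 32.1 CPM in KO2, against 116, 91.7 and 64.2 CPM in WT. Both groups overlapped, and SP8 was lowest in the 3 libraries with high mesenchymal sums. EFNA3 stood at 24.8, 29.1 and 37.2 CPM in KO1 and 15.4 and 32.6 CPM in KO2, against 60.9, 49.4 and 38.3 CPM in WT. PAX6 stood at 210, 17.7 and 287 CPM in KO1 and 11.6 and 122 CPM in KO2, against 325, 327 and 424 CPM in WT. For both EFNA3 and PAX6 every KO library was below every WT library, and the authors' deposited table gave adjusted p of 0.109 and 0.324. SLC40A1 stood at 2.17, 83.5 and 4.11 CPM in KO1 and 15.5 and 40.5 CPM in KO2, against 5.47, 3.81 and 5.09 CPM in WT (adjusted p 0.075 in the authors' deposited table). GRM5 stood at 8.29, 1.01 and 6.32 CPM in KO1 and 8.82 and 4.36 CPM in KO2, against 5.31, 14.9 and 5.95 CPM in WT (adjusted p 0.608 in the authors' deposited table). The SLC40A1 and GRM5 groups overlapped. Without the 3 libraries DESeq2 called none of LRAT, SP8, EFNA3, PAX6, SLC40A1 and GRM5 either (adjusted p 0.296 to 0.998).

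**Figure D4:**
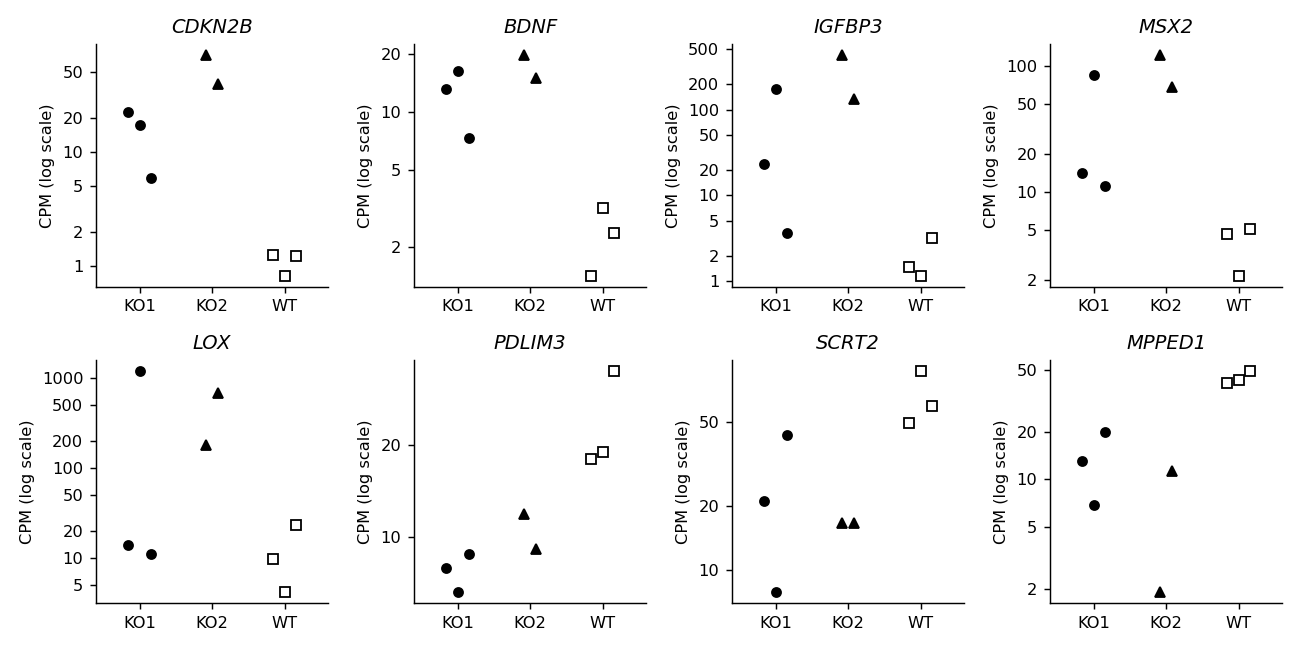
RNA per library (CPM, log axis, 1 point per library; filled circles KO1, filled triangles KO2, open squares WT) of 8 genes at short shared peaks. CDKN2B, BDNF, IGFBP3 and MSX2 lie above WT in all 5 KO libraries, LOX overlaps WT in KO1 replicates 1 and 3, and PDLIM3, SCRT2 and MPPED1 below WT in all 5.

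Among genes at any short shared peak, further strong calls were for a peptide hormone, a growth factor receptor and a second gene of the CDKN2 locus. ADM stood at 5.41, 40.2 and 1.5 CPM in KO1 and 31.7 and 20.0 CPM in KO2, against 0.324, 0.720 and 0.751 CPM in WT (5.07 ± 0.88, SE, adjusted p 5.08e-06 in the authors' deposited table). In WT a single peak of 5611 bases covered its start, where KO had 3 separate peaks of 1998, 348 and 2723 bases. KDR, a receptor for vascular endothelial growth factor, stood at 18.1, 42.5 and 1.91 CPM in KO1 and 39.2 and 21.5 CPM in KO2, against 0.811, 0.926 and 1.66 CPM in WT (4.47 ± 0.77, SE, adjusted p 4.16e-06 in the authors' deposited table). The KDR peak had widened, to 2907 bases in KO from 1367 in WT, in a pairing that was not 1 to 1. For ADM and KDR every KO library exceeded every WT library. CDKN2A stood at 3.28, 1.40 and 0.852 CPM in KO1 and 2.19 and 2.38 CPM in KO2, against 0.203, 0.137 and 0.0536 CPM in WT (3.90 ± 0.68, SE, adjusted p 5.19e-06 in the authors' deposited table), at a similar pair 4941 bases long in KO and 4529 in WT. RUNX1, a transcription factor of blood development, stood at 5.20, 29.6 and 1.09 CPM in KO1 and 14.7 and 17.2 CPM in KO2, against 0.608, 0.274 and 0.215 CPM in WT (5.23 ± 0.88, SE, adjusted p 2.1e-06 in the authors' deposited table), at 2 similar pairs. CDKN2A and RUNX1 were also above WT in every KO library. Without the 3 libraries DESeq2 still called ADM, KDR, CDKN2A and RUNX1 (adjusted p 0.0421, 0.0104, 0.00679 and 0.0243). Reads of BDNF, CDKN2A and CDKN2B cannot be told apart from those of their antisense partners, since the strand setting of the counting was not given in the sources used here.

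In the other direction, MPPED1, a metallophosphoesterase-domain protein, stood at 13.2, 6.85 and 20.1 CPM in KO1 and 1.93 and 11.3 CPM in KO2, against 41.1, 42.9 and 48.7 CPM in WT. Its peak had widened, to 3160 bases in KO from 992 in WT. No KO library reached the lowest WT library, and the authors' deposited table gave -2.04 ± 0.60 (SE, adjusted p 0.0183). DESeq2 gave an adjusted p of 3.3e-06 without the 3 libraries. The call was lost without WT replicate 1, 2 or 3 (DESeq2 adjusted p 0.0919, 0.109 and 0.133) or KO2 replicate 2 (0.0561). DPP4, a cell-surface peptidase, stood at 0.859, 0.617 and 1.35 CPM in KO1 and 0.717 and 0.545 CPM in KO2, against 2.51, 2.61 and 6.65 CPM in WT (-2.23 ± 0.49, SE, adjusted p 0.000645 in the authors' deposited table), also without overlap, and had no DESeq2 call without the 3 libraries.

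By gene family, short shared peaks lay at many neuronal receptors, channels and signalling genes, and long peaks at many homeobox factors and also at receptors and signalling genes. The 17 lists were written with earlier results of these data known, and their shares are a description. Short shared peaks lay at 20 of 44 neuropeptide and neurotrophic factor genes, 49 of 119 transmitter receptors and transporters, 38 of 103 ion channels and 30 of 81 genes of WNT, BMP, TGF-beta, FGF and hedgehog signalling, where 7.92% of all genes lay at one. KO peaks of 5000 bases or more lay at 4 (9.09%), 13 (10.9%), 2 (1.94%) and 12 (14.8%) genes of the same lists, where 1.92% of all genes lay at one. Beside the share over all genes, the first list and the receptor and signalling lists thus stood higher for long peaks too, and the channel list did not. Of 88 homeobox factors outside the HOX clusters, 15 lay at a short shared peak and 48 at a KO peak of 5000 bases or more. For 48 forkhead, GATA and T-box factors these numbers were 6 and 23, for 66 bHLH and zinc-finger factors 9 and 20, for 40 SOX, PAX and POU factors 7 and 10, and for 39 HOX genes 4 and 17. Short shared peaks also lay at 22 of 109 axon guidance and adhesion genes, 6 of 47 pan-neuronal markers, 3 of 7 cell cycle inhibitors and 3 of 41 Polycomb and COMPASS subunits.

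Most receptor and channel genes at short shared peaks lay at a similar peak, some of them also at a widened or shrunk one. Over all pairings, of 49 receptor and transporter genes 13 lay at widened, 41 at similar and 10 at shrunk peaks. Of 38 channel genes the counts were 12, 27 and 5, a gene counting in every class it lay at. All genes at short shared peaks matched to the RNA table were counted otherwise, in 1 class each: 260 widened, 329 shrunk and 1161 similar only. The 15 genes at both widened and shrunk peaks were left out there, so these counts are not comparable. With 1 to 1 pairs alone, of the transmitter receptors and transporters, 10 were at a widened pair (GABRA2, GRIN2A, GRM2, GRM5, NPY1R, NPY2R, SLC17A6, SLC1A6, SLC6A11 and TPH1) and 1, GRIK4, at a shrunk pair. Of the ion channels, 7 were at a widened pair (ASIC3, CACNA1C, CACNA2D1, KCNA4, KCNJ6, KCNK1 and KCNK2) and 1, KCNF1, at a shrunk pair. At similar pairs lay 24 receptors and transporters, GRIN2A, SLC1A6 and GRIK4 among them as well, and 17 channels. Over all genes at 1 to 1 pairs matched to the RNA table, 134 were at a widened pair, 91 at a shrunk pair and 933 at similar pairs only. Of 46 receptors and transporters in the authors' deposited table, 2 rose and 1 fell, and of 37 channels 1 rose, where 2.84% of all genes rose and 0.68% fell. Without the 3 libraries DESeq2 called 1 receptor higher (GRM8), 1 lower (GRIN2D) and 0 channels, where 0.492% of all genes were called higher and 0.329% lower. The median edgeR log2 fold change was 0.08 over 38 receptors and transporters and 0.02 over 32 channels, beside -0.01 over all genes, and 0.10 and -0.02 without the 3 libraries. Of the SOX, PAX and POU factors, PAX4, PAX6 and SOX3 were at a widened pair and 0 at a shrunk one. All 6 with RNA above the filter had a negative log2 fold change, with a median of -1.49 (-0.91 without the 3 libraries), and 0 of 6 were called in the authors' deposited table. Without the 3 libraries DESeq2 called SOX3, a factor of neural progenitors, lower (adjusted p 0.000304). The same fit called OTX2 higher, a homeobox factor at a widened pair and also at a similar one. Its edgeR log2 fold change was 1.494 without the 3 libraries and 0.6871 with all. Of the 125 widened-pair genes in that DESeq2 fit, 2 were called higher and 1 lower.

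The summed mesenchymal and the summed endothelial and blood markers were highest in the 3 libraries, and the epithelial markers were not. The 14 glial markers summed to 178, 416 and 265 CPM in KO1 and 650 and 393 CPM in KO2, against 212, 342 and 345 CPM in WT, and the lowest of the 3 libraries was close to the highest WT library. Of the 9 mesenchymal and connective tissue markers at a short shared peak, 8 rose in the authors' deposited table, among them COL12A1 (60.9, 9725 and 116 CPM in KO1 and 1261 and 3139 CPM in KO2, against 36.2, 12.2 and 88.0 CPM in WT) and PRRX1. Their median edgeR log2 fold change was 5.08, and 0.23 without the 3 libraries, where DESeq2 called 0. The sum of the whole list of 31 was highest in the 3 libraries, so these calls cannot be read as particular to genes at short shared peaks. For this and the lists below, 2.84% of all genes rose and 0.68% fell in the authors' deposited table. Without the 3 libraries DESeq2 called 0.492% of all genes higher and 0.329% lower. Of the 4 endothelial and blood markers, ERG, KDR and RUNX1 rose and 2 remained called without the 3 libraries. Of the 3 epithelial markers CLDN6 rose, at 17.3, 4.71 and 5.26 CPM in KO1 and 21.1 and 13.2 CPM in KO2, against 2.88, 1.30 and 1.72 CPM in WT (2.66 ± 0.57, SE, adjusted p 0.000451 in the authors' deposited table). DESeq2 gave 2.52 (adjusted p 0.0025) without the 3 libraries. The 15 epithelial markers summed to 565, 191 and 47.5 CPM in KO1 and 746 and 786 CPM in KO2, against 93.2, 48.0 and 22.5 CPM in WT, and the 15 endothelial and blood markers to 42.2, 157 and 10.7 CPM in KO1 and 156 and 96.8 CPM in KO2, against 10.7, 7.78 and 9.60 CPM in WT. Their part in these results was not tested. Of the 6 pan-neuronal and 3 glial markers 0 were called in the authors' deposited table. Of the 3 cell cycle inhibitors CDKN2A and CDKN2B rose, and both remained called without the 3 libraries, while CDKN1A had an adjusted p of 0.216. Of the 20 neuropeptide and neurotrophic factor genes, 17 were tested in the authors' deposited table, of which BDNF and NTF3 rose. DESeq2 called BDNF alone without the 3 libraries.

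**Figure D5:**
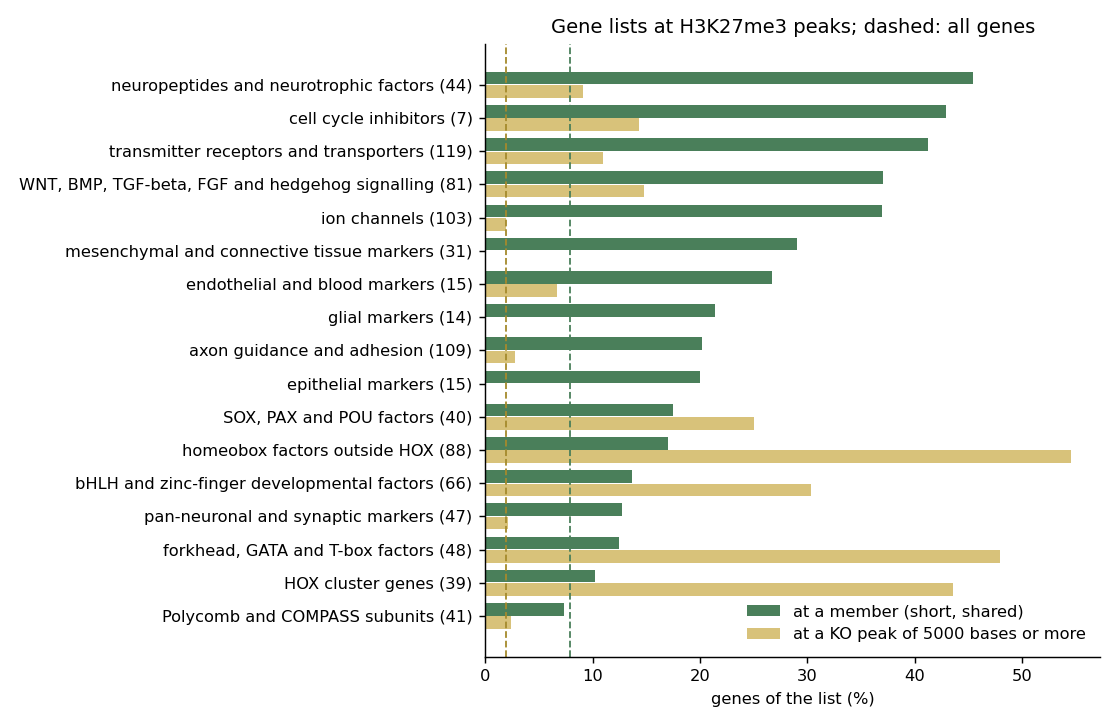
Share of each gene list (number of genes in brackets) with a start site within 2 kb of a short shared peak (upper bar of each pair) or of a KO peak of 5000 bases or more (lower bar), with the share over all 27195 genes as dashed lines in the same colours. Neuropeptide, receptor, channel and signalling lists stand at 37 to 45% for short shared peaks, and homeobox factors outside HOX at 48 of 88 for long ones.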

How the data were processed

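Per the submitters' processing notes, RNA was quantified with Salmon 1.1.0 on GRCh38 and tested with DESeq2 1.26.0, and ChIP reads were aligned with Bowtie2 2.4.1. RNA was deposited as estimated counts per gene, with no normalization. The authors' deposited comparison of KO with WT holds log2 fold changes and SE, the Wald statistic (a score), and raw and adjusted p-values. An adjusted p-value of 1 stands where DESeq2 made none. Per the file headers, narrow peaks come from MACS2 2.2.7.1 with a q-value limit of 0.01, a control and 1 tag per position. The deposited lists give the summit coverage signal, the fold ratio over control and −log10 q.

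Each KO peak was set against the WT peak sharing most bases, and a gene was at a peak within 2 kb of its RefSeq start (GRCh38.p14). Of 2154 genes, 1765 matched the RNA table, 35 through another symbol. Counts were rounded and tested over all genes with edgeR 4.0.16 (R 4.3.3, filterByExpr, TMM scaling, quasi-likelihood F-test, Benjamini-Hochberg adjustment) and DESeq2 1.42.0. Both were tested on simulated data. CPM are TMM-scaled, and differences per library use log2(CPM + 0.5). Since edgeR made no call, named calls are those of the authors' deposited table, with DESeq2 where libraries were left out.

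The peaks, lists and naming rule were chosen with earlier results of these data known. Named were the genes at the 10 highest and 10 lowest length ratios among 1 to 1 pairs with a gene in the RNA table, at the 10 highest KO enrichments, those with the smallest adjusted p in each direction, and list members with high enrichment. GRM5, RFTN1, OTX2, the genes given by sequence and the length-matched pairs were picked after their values were seen. The text leaves out part of the genes the rule named. Alternatives covered scaling, filters, DESeq2, a replicate block, KO1 and KO2 apart, left-out libraries, peak thresholds, overlaps and windows. The annotation behind the RNA counts was not given in the sources used here. Library totals limit the precision of weakly expressed genes.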

Additional observations from a re-analysis of the deposited data

Results flagged for a closer look

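1 value stood apart from the other libraries of its group. NT5E, a cell-surface nucleotidase, lay at a widened short shared peak (4558 bases in KO, 2245 in WT). It rose in the authors' deposited table (log2 fold change 4.37 ± 0.89, SE, adjusted p 0.00021). KO2 replicate 1 had 44.5 CPM, while the other 4 KO libraries lay between 1.23 and 12.6 CPM. The gap to the nearest library was 0.737 of the range of the 5 KO libraries, above Dixon's 95% critical value of 0.71. 34 such values were looked at, and chance alone marks about 1 in 20 groups.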

How the results depend on the processing

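Peak results turned on how peaks were paired. Requiring an overlap of at least 50% of each peak left 3307 peaks, of which 1 had widened and 0 had shrunk, by construction, with median log2 ratios of 0.075 (length) and -0.21 (enrichment) and 4 at a KO H3K36me3 peak. 1 to 1 pairs gave 385 widened and 239 shrunk, with medians of 0.095 and -0.20. Summing the WT peaks under each KO peak gave 460 widened and a median length ratio of -0.075, and summing both lists over groups of overlapping peaks gave 495 widened, 275 shrunk and 0.089. An overlap of 50% of the shorter peak gave medians of 0.043 and -0.24, and both peaks under 5000 bases a length median of 0.036.

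edgeR made 0 calls at all short shared peaks, also with each library left out. DESeq2 made 242, with 222 of 1713 genes higher (13.0%) and 20 lower (1.17%), where 2.84% and 0.676% of all genes were. For KO2 against WT edgeR made 322, with 271 of 1371 genes higher (19.8%) and 51 lower (3.72%), where 8.25% and 3.67% of all genes were. The median log2 fold change was 0.019 at all short shared peaks and 0.21 at shrunk pairs without KO1 replicate 2 and both KO2 libraries, where DESeq2 called 42 and 7 genes higher. With each library left out the medians were 0.18 to 0.43 at all short shared peaks, 1.01 to 1.43 at shrunk and -0.19 to -0.04 at widened pairs. DESeq2 calls were then 83 to 351 higher at all short shared peaks, 8 to 38 higher and 1 to 3 lower at shrunk pairs, and 1 to 8 higher and 0 to 7 lower at widened pairs. All-gene counts of those fits are not given. With all libraries in DESeq2, a 1 kb window gave 1 higher and 0 lower at widened and 1 lower at shrunk pairs. The whole gene span gave 5 higher at widened and 1 lower at shrunk pairs. The numbers of genes tested with these windows are not given, so these counts cannot be set beside the all-gene shares. Replicate numbers did not pair the libraries (correlations of same-numbered deviations 0.07, -0.32 and -0.22 for KO1 with WT, 0.05 and -0.11 for KO2 with WT). The replicate block gave 0 calls and medians of 0.19, 0.96 at shrunk and -0.24 at widened pairs. Of 26 genes checked singly, 9 lost a DESeq2 call with some library left out and 11 without the 3 libraries, and none reversed. The causes were not tested.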
